A study of Mus musculus with 4 samples.

Results

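Immediate early genes were examined in the anterior and posterior lobes of the developing mouse cerebellum. The set comprised FOS, FOSB, JUN, JUNB, EGR1, EGR2, ARC, NR4A1, DUSP1 and IER2, and every probe that carried one of these 10 symbols was taken, which gave 11 of the 45281 probes and 10 of the 30854 gene symbols on the array. All samples were total RNA of untreated Swiss mice at postnatal day 7, with 2 samples of anterior lobes and 2 of posterior lobes, each hybridized to its own Illumina MouseWG-6 v2.0 array. On such an array beads carry copies of a short DNA probe, whose intensity is averaged over its beads. The study contrasted the lobes to find genes whose activity differed along the cerebellum. The labels did not say whether replicates came from separate animals, so the p-values measure only the spread between these samples, and in whole lobes fewer cells of a type cannot be told apart from less RNA per cell.

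Immediate early genes are switched on within minutes of a stimulus without the need for new protein. Kinase cascades and calcium act on factors that already sit at their promoters, chiefly serum response factor with its partners and the cyclic AMP response element binding protein. In neurons FOS, EGR1 and ARC are widely used as marks of recent activity, and FOS and EGR1 also respond to growth factors and to stress.

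The median intensity was 110.2 to 129.6 per array, and 21070 to 21574 probes per array were detected, which here means a detection p-value under 0.05. Signals are given below as log2 of the quantile normalized intensity. Testing with limma covered the 21726 probes of 15615 genes that 2 or more of the 4 arrays detected, and differences are always posterior minus anterior. Some transcripts followed the replicate number in both lobes. The brightest probe of XIST, the RNA that coats the inactive X chromosome, read 13.05 and 13.01 on the anterior and posterior arrays of replicate 1 and 7.07 and 6.83 on those of replicate 2. EIF2S3Y, a gene of the Y chromosome, read 5.87 and 6.14 on the arrays of replicate 1, where its brightest probe was not detected, and 9.60 and 10.02 on those of replicate 2. The RNA of replicates 1 and 2 was therefore not the same material, and the spread between them is not technical alone. TTR, which choroid plexus makes in quantity, read 9.10 and 8.37 on the arrays of replicate 1 and 13.34 and 11.85 on those of replicate 2, and within each replicate it was lower in the posterior lobe. The part of these replicate differences in the values below was not tested. Of the defining markers of the cerebellum, PAX6, NEUROD1, ZIC1 and GABRA6 of granule neurons and PCP2 of Purkinje cells were detected, while no probe of ATOH1, CBLN3, CALB1 or CAR8 was tested.

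The promoters of these genes carry the elements through which the signals act, and several are printed here because they show which elements the genes share. RefSeq promoter windows of assembly GRCm38.p6, from 250 bases before to 50 bases after the annotated start, were matched by symbol for 7 of the 10 genes, namely FOS, FOSB, JUN, JUNB, EGR2, NR4A1 and DUSP1. Each sequence is the stretch of 150 bases before the start, 5′ to 3′ on the strand of the gene, and capitals mark the matches to the motifs described below. FOS lies at chr12:85473740-85473889 on the plus strand, JUNB at chr8:84978749-84978898 on the minus strand, EGR2 at chr10:67537719-67537868 on the plus strand, NR4A1 at chr15:101266696-101266845 on the plus strand and DUSP1 at chr17:26508473-26508622 on the minus strand.
FOS: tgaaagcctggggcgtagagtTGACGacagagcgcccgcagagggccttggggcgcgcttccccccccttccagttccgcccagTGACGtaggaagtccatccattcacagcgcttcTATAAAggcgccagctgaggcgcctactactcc
JUNB: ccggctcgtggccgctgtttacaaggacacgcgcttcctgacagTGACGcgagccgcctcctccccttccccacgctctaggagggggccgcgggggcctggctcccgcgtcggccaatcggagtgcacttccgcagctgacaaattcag
EGR2: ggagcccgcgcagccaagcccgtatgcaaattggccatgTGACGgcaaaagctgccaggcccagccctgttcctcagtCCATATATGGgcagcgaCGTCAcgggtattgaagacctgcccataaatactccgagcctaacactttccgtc
NR4A1: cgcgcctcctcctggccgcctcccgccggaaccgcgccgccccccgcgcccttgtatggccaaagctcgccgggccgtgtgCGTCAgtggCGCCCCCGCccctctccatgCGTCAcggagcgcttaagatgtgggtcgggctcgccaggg
DUSP1: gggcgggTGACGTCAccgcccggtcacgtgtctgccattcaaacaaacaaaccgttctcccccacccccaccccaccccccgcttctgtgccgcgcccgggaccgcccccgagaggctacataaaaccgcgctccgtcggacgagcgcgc

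The motif most widely shared was TGACG, the short form of the cyclic AMP response element, which was found on either strand in 6 of the 7 windows. It was absent from that of JUN only, and 23% of all 27025 genes with a window held it. FOS carried it at -129 to -125 and at -66 to -62 from the start, and NR4A1 carried it at 4 places. The full element TGACGTCA, which contains the short form on both strands, was present in DUSP1 at -143 to -136 and in 2.03% of all genes. The CArG box, the site of serum response factor, was matched in EGR2 at -72 to -63 and in 1.81% of all genes. Sites beyond the windows, and the promoters of EGR1, ARC and IER2, which had no window, were not searched. The window of EGR2 shown is the one with the most matches of its 5 windows. The TATA box TATAAA was matched in FOS at -33 to -28 and in JUNB at 1 to 6, beyond the stretch printed, and in 15.7% of all genes. The site GCGGGGGCG, which EGR proteins bind, was matched in FOSB and NR4A1 and in 3.31% of all genes. GCGTGGGCG and the AP-1 site TGANTCA, a site of FOS and JUN dimers, were matched in 0 of the 7 windows and in 0.707% and 8.97% of all genes. Only the exact patterns were searched, so a variant of a site, in JUN or another window, is not counted. A match is a run of letters and not evidence that a factor was bound.

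**Figure D1:**
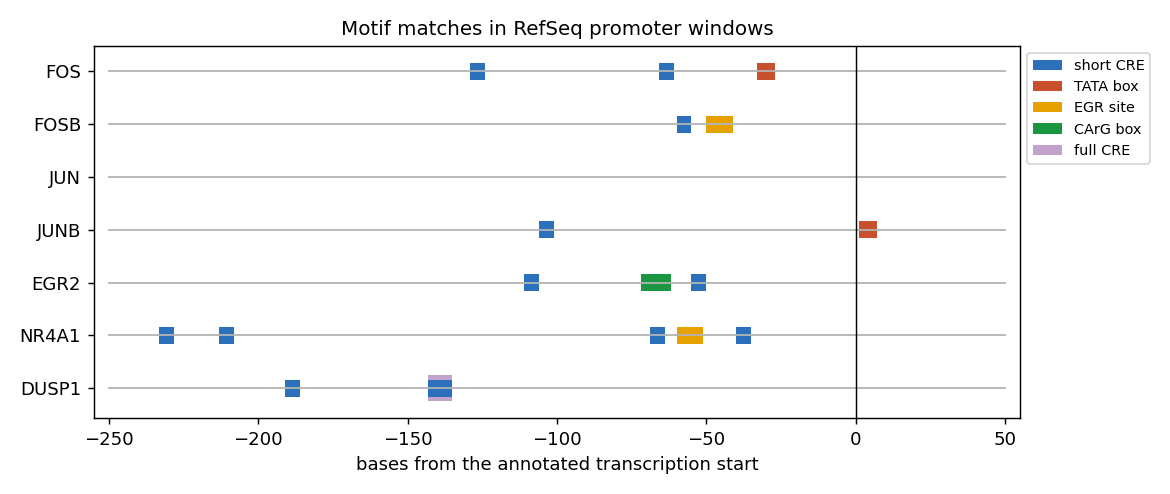
Positions of motif matches on either strand in the promoter windows of 7 immediate early genes, in bases from the annotated start (x axis), with 1 line per gene. The short cyclic AMP response element lies in 6 of the 7 windows, and the full element, drawn as a taller pale box, lies in DUSP1 alone.

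Transcripts of 7 of the 10 genes were above background in the lobes. FOS, JUN, JUNB, EGR1, EGR2, ARC and DUSP1 had 1 tested probe each, and each of these 7 probes was detected on all 4 arrays. FOSB, NR4A1 and IER2 were not above background on any array, and neither was the second probe of JUNB. At an adjusted p under 0.05 limma called 0 of these 7 probes, against 0.106% of all tested probes. At an unadjusted p under 0.05 there was 1, EGR1, and the methods' t-test gave 0 after adjustment and 1 before it, ARC. The study itself required more than a 1.2-fold change at an unadjusted p below 0.05. With the p from limma in this criterion, EGR1 was lower in the posterior lobes and 0 of the 7 genes were higher. Of all genes 6.05% were then lower and 4.10% higher. By the methods' t-test EGR1 had an unadjusted p of 0.177, and 0 of the 7 genes were called. Of all genes 2.61% were lower and 1.76% higher by that test. With so few genes, that single call is not a result about the set.

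**Figure D2:**
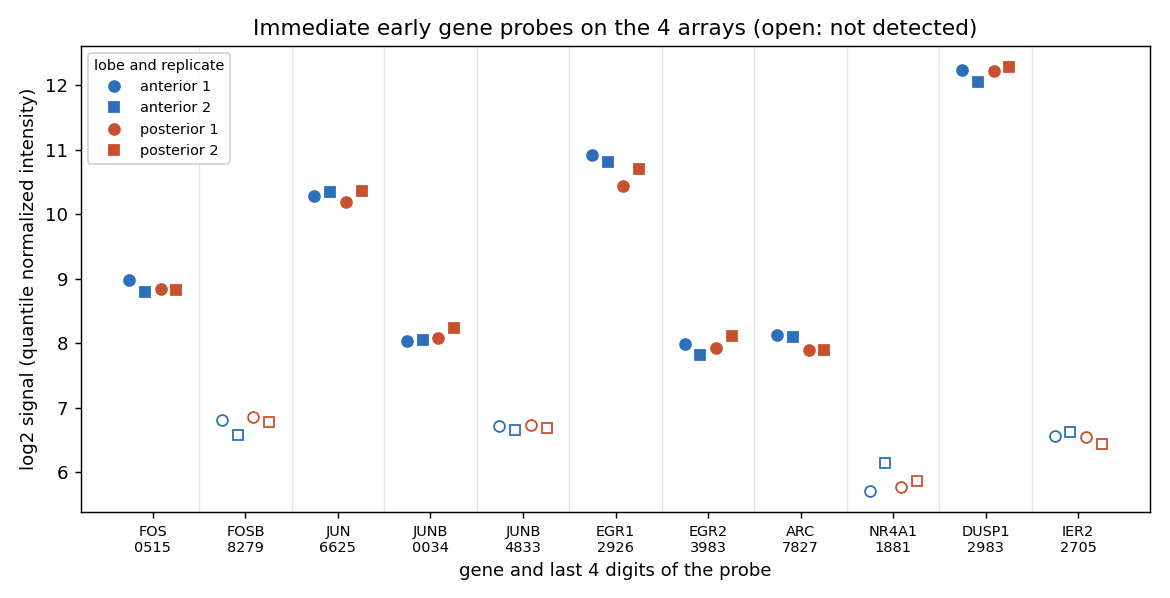
Quantile normalized log2 signal (y axis) of the 11 probes of immediate early genes (x axis) on the 4 arrays, blue for anterior and orange for posterior lobes, with circles for replicate 1, squares for replicate 2 and open symbols where a probe was not detected. The 2 posterior values lie below both anterior values for EGR1 and ARC among the detected probes. Heights of different probes are not comparable with each other.

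The FOS and JUN families encode the subunits of the dimeric factor AP-1. FOS, which needs a JUN partner to bind DNA, read 8.99 and 8.80 on the anterior arrays and 8.84 and 8.83 on the posterior arrays, from intensities of 554.5 and 407.2 against 448.8 and 459.7. The 2 posterior values were nearly equal and lay between the anterior values, so the lobes overlapped. Its difference was -0.05 ± 0.13 (SE), with a 95% confidence interval of -0.36 to 0.25 and an adjusted p of 0.913 in limma. FOSB, a close relative of FOS, had intensities of 119.1 and 87.8 on the anterior and 116.0 and 111.9 on the posterior arrays. Its detection p-values were 0.0994 to 0.212, and no fold change is given.

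JUN, which binds DNA with FOS or as a pair with itself, read 10.28 and 10.35 on the anterior arrays and 10.19 and 10.36 on the posterior arrays. The posterior arrays held both the lowest and the highest value. The difference was -0.04 ± 0.10 (SE), with an interval of -0.30 to 0.22 and an adjusted p of 0.925. JUNB, which often acts as the weaker activator of the family, read 8.03 and 8.05 on the anterior arrays and 8.09 and 8.23 on the posterior arrays. Both posterior values were above both anterior values, a pattern that 22.5% of all genes showed. The gap between the lobes was small beside the distance between the posterior arrays, and without normalization the lobes overlapped. The difference for JUNB was 0.12 ± 0.12 (SE), with an interval of -0.17 to 0.41 and an adjusted p of 0.757. The second JUNB probe had intensities between 91.9 and 111.6 and detection p-values of 0.150 to 0.186.

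EGR1 and EGR2 encode zinc finger factors that bind GC-rich sites. EGR1, the classic growth factor and activity response gene, had intensities of 2091.2 and 1675.8 on the anterior arrays and 1345.2 and 1693.4 on the posterior arrays, and its log2 signals were 10.92 and 10.81 against 10.44 and 10.70. After normalization both posterior values were below both anterior values, as for 20.8% of all genes, while the intensities as deposited overlapped. The mean was 10.86 ± 0.081 (SD, n = 2) in the anterior and 10.57 ± 0.19 (SD, n = 2) in the posterior lobes. The difference was -0.29 ± 0.12 (SE), with an interval of -0.59 to -0.0026, or a level 1.23-fold lower, with an unadjusted p of 0.0485 and an adjusted p of 0.493 in limma. The 2 posterior arrays differed from each other by 0.26 on the log2 scale, close to the distance between the lobes, and the first posterior array was the lowest of the 4. Without posterior replicate 1 the difference was -0.16 and the unadjusted p in limma 0.314, and without anterior replicate 1 they were -0.24 and 0.0732, so the call rests on each of these arrays. It was also lost without normalization and with a common 75th percentile, at differences of -0.31 and -0.28, and without the intensity trend and by the methods' t-test, where the difference is the same -0.29 and only its error changes.

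EGR2, known also as a master gene of myelin in Schwann cells, read 7.99 and 7.82 on the anterior arrays and 7.92 and 8.12 on the posterior arrays. The lobes overlapped, and the highest value was that of posterior replicate 2. The difference was 0.11 ± 0.13 (SE), with an interval of -0.21 to 0.44 and an adjusted p of 0.796. EGR1 and EGR2 thus had estimates of opposite sign, and whether they differed from each other was not tested.

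ARC encodes a protein of synapses that promotes removal of glutamate receptors from the membrane. Its intensities were 307.8 and 250.2 on the anterior arrays and 235.1 and 238.8 on the posterior arrays, and its log2 signals were 8.13 and 8.10 against 7.89 and 7.90. Both posterior values were below both anterior values, with or without normalization. After normalization 20.8% of all genes showed this order, and the share on both scales was not computed. Of the 7 genes only ARC kept its lobes apart on both scales. The replicates lay close together, with means of 8.12 ± 0.021 (SD, n = 2) and 7.90 ± 0.0041 (SD, n = 2). The difference was -0.22 ± 0.11 (SE), with an interval of -0.49 to 0.049, or a level 1.17-fold lower, with an unadjusted p of 0.0924 and an adjusted p of 0.560 in limma. The methods' t-test, which takes the spread from the probe alone, gave an unadjusted p of 0.00485 for the same values. ARC missed the 1.2-fold limit in either test. NR4A1, an orphan nuclear receptor, was not above background, with intensities of 53.5 and 66.0 on the anterior and 55.1 and 58.1 on the posterior arrays and detection p-values of 0.552 to 0.997.

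DUSP1 encodes a phosphatase that switches off the kinases that induce it. It read 12.23 and 12.05 on the anterior arrays and 12.22 and 12.28 on the posterior arrays, from intensities of 3968.9 to 5170.6. Anterior replicate 2 was the lowest and the other 3 arrays lay close together, so the lobes overlapped. The difference was 0.11 ± 0.086 (SE), with an interval of -0.10 to 0.32 and an adjusted p of 0.698. IER2, a small nuclear protein induced with FOS, read 6.55 and 6.62 on the anterior and 6.55 and 6.43 on the posterior arrays, with detection p-values of 0.198 to 0.269, and was not above background.

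**Figure D3:**
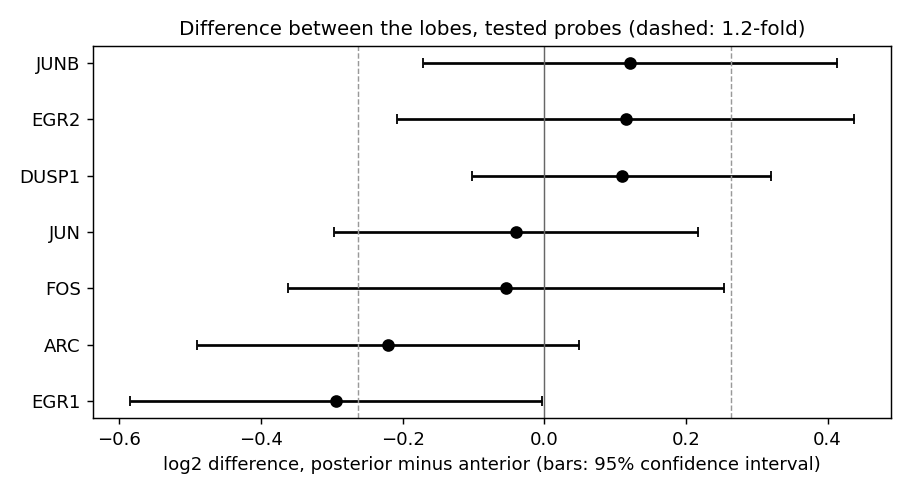
Log2 difference, posterior minus anterior (x axis), of the 7 tested probes of immediate early genes, with 95% confidence intervals from limma and dashed lines at 1.2-fold in either direction. The intervals reach 0.21 to 0.32 to each side, and that of EGR1 ends at -0.0026, just short of 0.

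Among the 7 tested genes 3 differences were above 0 and 4 below it. Their median was -0.04, against 0.0079 for all genes tested. The median absolute difference between the lobes was 0.11 for these probes. Between single arrays of a lobe it was 0.11 for the anterior and 0.15 for the posterior arrays, although a difference between means of 2 arrays varies less than one between single arrays. For all tested probes the corresponding medians were 0.10 between the lobes, 0.14 between the anterior arrays and 0.092 between the posterior arrays. Within a single array the standard error over 27 to 55 beads was 2.22% to 5.07% of the mean intensity for the tested probes. It covers the sampling of beads only and is not the whole error of an array.

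The wider response programme was described with lists of genes that are induced together with the immediate early genes, act before them or work with their proteins. In each of these lists 0 probes passed an adjusted p of 0.05 in limma without a replicate block. Unless another test is named, the calls below are by the criterion of the study with the p from limma. The shares of all genes for that rule are given above. For relatives in the FOS, JUN, EGR and NR4A families, 4 of 7 genes were tested and 0 passed. EGR3, which is induced by activity like EGR1, read 7.27 and 7.08 on the anterior and 7.33 and 7.39 on the posterior arrays, a difference of 0.19 ± 0.11 (SE) with an adjusted p of 0.608 in limma. One probe of FOSL2 had a difference of 0.22 and an adjusted p of 0.549, and the other 0.04. For other inducible transcription factors, 8 of 14 genes were tested and 0 passed, with the largest differences for KLF4 at 0.20 and CEBPB at 0.12. The stress-induced chaperones, with 8 of 10 genes tested, had 0 past the criterion and a median of 0.011. Their largest differences were -0.19 for HSPA1A, whose transcript is nearly identical to that of HSPA1B, and -0.17 for 1 of the 3 probes of HSPA8.

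The inducible genes that are not transcription factors, which comprise effectors and feedback inhibitors, had calls in 1 direction. Of 28 genes 21 were tested, 5 were higher in the posterior lobes and 0 lower, with a median of 0.14. Of all genes 4.10% were higher and 6.05% lower. With the test of the methods in place of limma, 3 of the 21 were higher and 0 lower, against 1.76% and 2.61% of all genes. NRN1, an activity-induced protein that promotes neurite growth, read 12.92 and 12.87 on the anterior arrays and 13.36 and 13.33 on the posterior arrays. All arrays of a lobe lay close together, and the posterior level was 1.37-fold higher, with a difference of 0.45 ± 0.061 (SE) and an adjusted p of 0.0899 in limma. DUSP4 and DUSP6, phosphatases of the same feedback class as DUSP1, were higher by 1 of 3 tested probes each. The called probe of DUSP4 read 9.59 and 9.69 on the anterior and 10.06 and 10.04 on the posterior arrays, a difference of 0.41 ± 0.10 (SE). Its other probes differed by 0.14 and 0.22, so the probes disagreed in size. Without posterior replicate 1 or 2 the DUSP4 difference stayed at 0.40 or 0.41, and that of NRN1 was 0.43 to 0.48 whichever array was left out. A fit without an array rests on a single array of that lobe. Here and below a call can therefore be lost while the difference hardly changes.

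DUSP6, which acts on the kinases ERK1 and ERK2, read 12.08 and 11.51 on the anterior arrays and 12.21 and 12.29 on the posterior arrays, a difference of 0.46 ± 0.18 (SE). Anterior replicate 2 stood below the other arrays on all 3 probes. Without it the difference was 0.17, with an unadjusted p of 0.0582 in limma. Without posterior replicate 1 or 2 it was 0.50 or 0.42 and also not called. IER3, an early response gene tied to cell survival, read 10.01 and 9.95 against 10.32 and 10.43, a level 1.31-fold higher with an adjusted p of 0.316. CTGF, a secreted matrix protein, read 8.44 and 8.50 on the anterior and 8.95 and 9.59 on the posterior arrays, a level 1.74-fold higher with an adjusted p of 0.338, while its other probe differed by 0.20. Without posterior replicate 2 the difference of CTGF was 0.48 and that of IER3 0.34, with unadjusted p of 0.0585 and 0.0951 in limma, and neither was called.

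The median of this list, 0.14 with every array, moved with single arrays. It ranged from 0.069 (posterior replicate 2 removed) to 0.17 (posterior replicate 1 removed). Beside these genes, meningeal fibroblast markers were higher in the posterior lobes. Of 6 tested, 4 were higher, with a median of 0.50 and summed intensities of 16188.5 to 16710.2 in the anterior and 22884.3 to 27208.4 in the posterior lobes, and DCN led them at 0.93. In limma 1 of their 9 tested probes passed an adjusted p of 0.05, against 0.106% of all tested probes. Without posterior replicate 2 the median was 0.36. By the methods' t-test 1 of the 6 was called, higher, against 1.76% of all genes. The part of these markers in the values of CTGF and the other inducible genes was not tested.

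**Figure D4:**
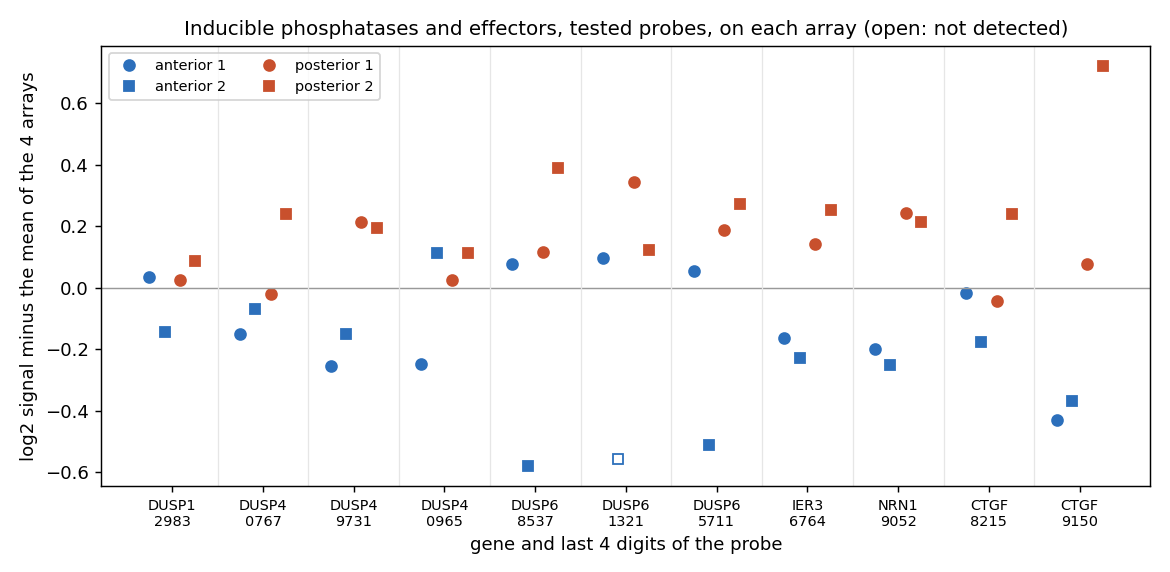
Log2 signal minus the mean of the 4 arrays (y axis) for every tested probe of DUSP1, DUSP4, DUSP6, IER3, NRN1 and CTGF (x axis), with colours and symbols as for the immediate early gene probes. DUSP1 stays within a narrow range and overlaps between lobes, NRN1 and IER3 separate the lobes, and anterior replicate 2 lies lowest on the 3 probes of DUSP6.

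The kinases, coactivators and constitutive factors that act on immediate early promoters had 24 of 32 genes tested, on 50 probes. Of these genes 2 were higher and 4 lower, and the median was -0.03. By the methods' t-test 0 were higher and 2, CAMK2D and CAMK2B, were lower, against 1.76% and 2.61% of all genes. A gene with more tested probes has more chances of a call, and the 15615 genes tested had 21726 probes. The coactivators CREBBP and EP300, paired acetyltransferases recruited by phosphorylated CREB, were higher on 2 probes each. For CREBBP the called probes differed by 0.65 ± 0.21 (SE) and 0.59 ± 0.20 (SE) and the remaining probe by 0.52, and for EP300 the probes differed by 0.66 and 0.30. Anterior replicate 2 was the lowest array on all of these probes, and without it the called probes of CREBBP differed by 0.37 and 0.39 and those of EP300 by 0.43 and 0.18, the last no longer called. Without posterior replicate 1 neither CREBBP probe was called, at 0.50 and 0.35, and without posterior replicate 2 neither EP300 probe was, at 0.53 and 0.38. The 4 lower genes were CAMK2D on 1 of 7 tested probes at -0.47, CRTC3 on 1 of 2 at -0.34, RPS6KA1 on 1 of 2 at -0.33 and CAMK2B at -0.29, the last named after its value was seen. Except for the coactivator CRTC3 they encode kinases of calcium or growth factor signalling. The calls of CRTC3 and RPS6KA1 were lost without anterior replicate 2, where they differed by -0.19 and -0.25, and also without either posterior replicate. CAMK2D was not called without posterior replicate 2, at -0.44, and CAMK2B was not called without anterior replicate 1, at -0.25. When single arrays were removed, the median of the list ranged from -0.068 (anterior replicate 1 removed) to -0.0035 (anterior replicate 2 removed).

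Dimer partners and corepressors had 10 of 15 genes tested, on 20 probes, with 1 higher, 2 lower and a median of 0.085. By the methods' t-test 0 were higher and 0 lower, against 1.76% and 2.61% of all genes. NAB2, which binds EGR proteins and represses them and is itself an EGR target, read 7.12 and 7.17 on the anterior and 7.35 and 7.71 on the posterior arrays, a difference of 0.39 ± 0.14 (SE) with an adjusted p of 0.452 in limma. ATF2, a partner of JUN, was called lower on 1 of 3 probes at -0.31, and RXRB, a partner of nuclear receptors, on 1 of 3 at -0.30. Without posterior replicate 2 the probes of NAB2, ATF2 and RXRB were not called, at 0.21, -0.22 and -0.25. The median of the list was 0.12 in that setting and 0.10 without anterior replicate 2. RXRB was also not called without anterior replicate 1 or posterior replicate 1, nor the ATF2 probe without anterior replicate 2.

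**Figure D5:**
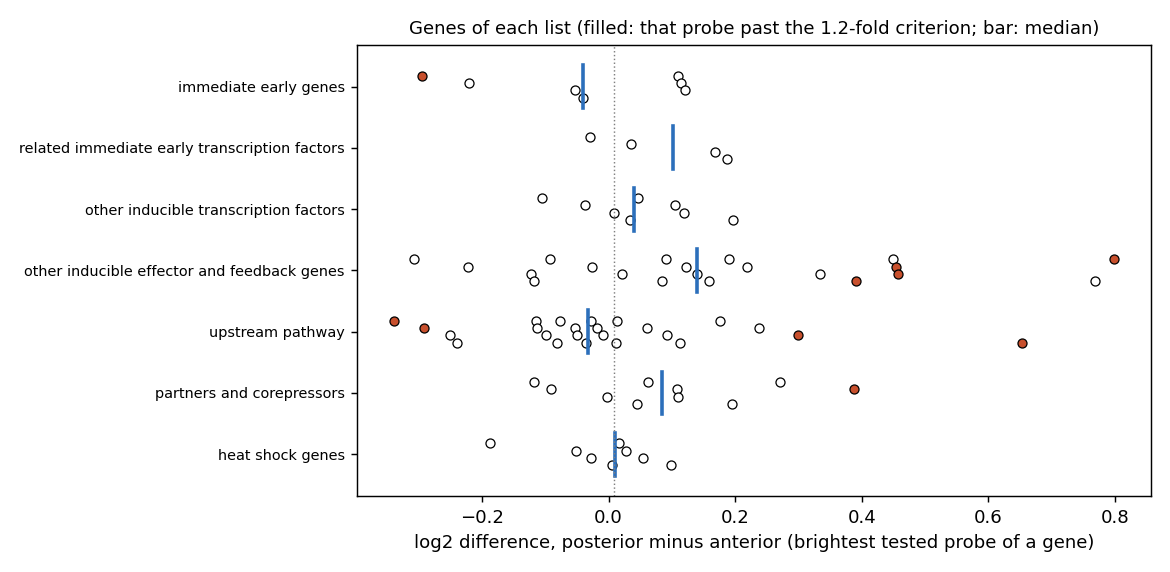
Log2 difference, posterior minus anterior (x axis), of the brightest tested probe of each gene in the immediate early gene set and 6 pathway lists. Points are filled where that probe passed the criterion of the study with the p from limma. Blue bars mark the medians and a dotted line the median of all genes. The immediate early genes lie between -0.29 and 0.12, and the widest upward spread is in the effector and feedback list. Calls on a dimmer probe (DUSP4, CAMK2D, RPS6KA1, ATF2 and RXRB) are not drawn as filled.

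Markers of other cells moved between the lobes as well. Of 8 oligodendrocyte markers tested, 7 were lower in the posterior lobes, with a median of -0.75. In limma 5 of their 18 tested probes passed an adjusted p of 0.05, against 0.106% of all tested probes. Summed intensities were 88032.1 to 102727 in the anterior and 60959 to 62606.1 in the posterior lobes. MAL at -1.53 and MOG at -1.42 had the largest differences. EGR1 and ARC had lower values in the same lobes, and the part of these markers in their values was not tested. Granule neuron markers had 0 of 5 called and a median of 0.040, Purkinje cell markers 0 of 3 and -0.12, astroglial markers 0 of 6 and -0.033, and microglial and macrophage markers 0 of 7 and 0.093. Endothelial markers had 1 of 7 called, higher, and smooth muscle 0 of 2. Choroid plexus had 1 of 2 called, lower, and red blood cells 0 of 5.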

How the data were processed

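Total RNA of 2 anterior and 2 posterior lobe samples was measured on 1 array each. The authors deposited mean bead intensity, the SD of bead intensity and bead number per probe, exported by GenomeStudio 1.9.0 without normalization. They also deposited a detection score, which is 1 minus the detection p-value. A further 16 columns of per-sample values were not used. The numbers that the labels give the samples tied each array column to its sample. Probe sequences and positions were not given in the sources used here, and gene symbols are those of the array, so that SIK1, BHLHE40 and CSRNP1 are listed under older symbols.

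In R 4.3.3, intensities were quantile normalized (the methods name no normalization between arrays), set to no less than 1 and taken to log2. Every probe that 2 or more arrays detected at p under 0.05 was tested with limma 3.58.1 (lmFit, eBayes with intensity trend), with Benjamini-Hochberg adjustment over all tested probes, and the fit was tested on simulated data. The second call rule, from the methods, was more than 1.2-fold at an unadjusted p below 0.05, applied to the p from limma unless the t-test is named. A gene counts as called if any tested probe is, and medians use its brightest tested probe. An exact permutation test of 2 arrays against 2 cannot give a two-sided p below 0.333, so the calls rest on the spread limma estimates across probes. The number of arrays limits the precision.

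The genes and lists were chosen with earlier results of these data known. Named genes are every immediate early gene, of each pathway list up to 5 called genes with the largest differences (otherwise the 2 largest), and at most 2 markers per list. Alternatives were neqc background correction with offset 16, no normalization, a common 75th percentile, cyclic loess, 3 other filters on dim probes, the replicate number as a block, eBayes with no trend, the t-test of the methods, the mean of all probes of a gene, and leaving out each array in turn.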

Additional observations from a re-analysis of the deposited data

How the results depend on the processing

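In all settings 0 immediate early gene probes passed an adjusted p of 0.05 in limma or the methods' t-test. The count past the 1.2-fold criterion, 1 (EGR1), was 0 without normalization, with a common 75th percentile, without the intensity trend and by the methods' t-test, and 0 to 1 with an array left out. Their median of -0.04 ranged from -0.050 to 0.041 with an array left out. FOS changed sign without anterior replicate 1 (0.041, range -0.15 to 0.041), and JUN without posterior replicate 1 (0.041, range -0.12 to 0.041). Over the whole array, 23 probes passed an adjusted p of 0.05, against 123 without normalization, 73 without the filter, 13 without the trend, 0 by the methods' t-test, 588 with the replicate block, and 0 to 2538 with an array left out. The 1.2-fold criterion called 1579 genes, against 683 by the methods' t-test, 2420 with the replicate block, and 678 to 3936 with an array left out. Of the calls 40.4% were higher, against 54.6% with a common 75th percentile. The replicate numbers pair only 2 arrays per lobe, and the labels do not say what they mark. The differences between replicates 1 and 2 correlated between the lobes at r = 0.46 over 21726 probes, which are not independent. With the replicate block EGR1 had an unadjusted p of 0.0285 and an adjusted p of 0.244 in limma. The effector and feedback list then had 8 of 21 genes called higher, against 7.03% of all genes. Without the block these were 5 and 4.10%. With the block 4 pathway probes passed an adjusted p of 0.05, those of NRN1 (0.00674), CTGF (0.0203) and 2 of CREBBP (0.0160 and 0.0236). With an array left out, 0 to 22 pathway probes passed it, the most without anterior replicate 1. Intensities near background, as for FOSB, NR4A1 and IER2, allow no statement on a difference.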
